A study of Mus musculus with 26 samples.

Results

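F5 and TG6 thymocytes were compared at late positive selection, the stage at which CD4+CD8+ cells have lost CXCR4 and gained CCR7. Both groups were sorted from thymus as CD4+CD8+CXCR4-CCR7+ cells, and all RNA-seq libraries the labels assign to those populations entered the comparison: 3 for F5 and 2 for TG6, of 26 in the series. It was made over 16372 of 46517 gene symbols, those that reached a value of 10 in 2 or more of the 26 libraries. F5 mice carry the F5 TCR transgene (F5tg Rag1KO) on C57/BL6. TG6 mice carry the TG6 transgene with both H2 haplotypes b and d (TG6tg H2b/d, C57/BL6 x B6.C-H2d/bByJ), and their label names no Rag deletion. The lines therefore differ in the TCR, in Rag1 and in the H2 haplotype together, and parts of a difference that belong to each cannot be told apart. OT-1 (OT-1tg Rag2KO, C57/BL6), a transgenic line that like F5 is Rag-deficient and H2b, has 3 libraries at this stage, and its values are given beside some results. In the study these lines stand for different degrees of self-reactivity, TG6 the lowest, F5 in between and OT-1 the highest, so that F5 against TG6 asks what separates the lower pair of the series. The ages of the mice are not in the labels.

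Positive selection rescues double-positive thymocytes whose receptor weakly recognises self peptide on MHC. Cells of the CD8 lineage then leave the cortex, lose CD4, become quiescent, and switch on genes for survival, cytokine response and egress. In the medulla, thymocytes also meet interferon made without infection; it signals through Ifnar or Ifngr and the kinases Jak1, Jak2 and Tyk2 to STAT and IRF factors, which switch on antiviral genes and much of the MHC class I pathway.

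Values are normalised read counts as deposited, and differences are F5 minus TG6 of log2(value + 1). A gene was called at an adjusted p under 0.05 in limma (Benjamini-Hochberg over all genes tested), and adjusted p given for a comparison without some libraries come from the same fit made without them. Totals per library were 17686398, 16496676 and 16467826 in F5 and 16134786 and 16255430 in TG6. Over genes, libraries correlated at 0.964 to 0.971 within F5, 0.976 within TG6 and 0.951 to 0.958 between the lines. The labels call the libraries biological replicates and do not say which mice they came from, so the p-values measure the spread between libraries. F5 replicate 1 stood apart, with 1575 genes over 2-fold from the mean of the other F5 libraries where those lay within 2-fold of each other, against 981 for replicate 2 and 883 for replicate 3. It carried the highest Id3, Klf2, Nr4a1 and S1pr1, and replicate 2 the highest Rag1 and mitosis genes. None of the 5 sorting markers was called, and neither was Rag1, at 62.3, 1658 and 109 in F5 and 249 and 124 in TG6. The Rag1 transcript therefore did not separate the labelled deletion from its absence, and a deletion that leaves transcribed sequence would not show in these values.

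Of the 16372 genes, 814 were called between F5 and TG6 (4.97%), 286 higher in F5 (1.75%) and 528 lower (3.23%). TCR segments made up 76 of the calls, 72 of them lower in F5. A difference beyond 1 on the log2 scale was called for 524 genes (3.2%), 113 of them higher in F5 (0.69%) and 411 lower (2.51%). All 3 F5 values lay below both TG6 values for 2536 genes (15.5%) and above both for 2912 (17.8%), so that a lack of overlap alone is common in 5 libraries. The median difference over all genes was 0.02. The count fell to 429 without TG6 replicate 1 and to 375 without TG6 replicate 2, and 418 genes were called without F5 replicates 1 and 2.

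**Figure D1:**
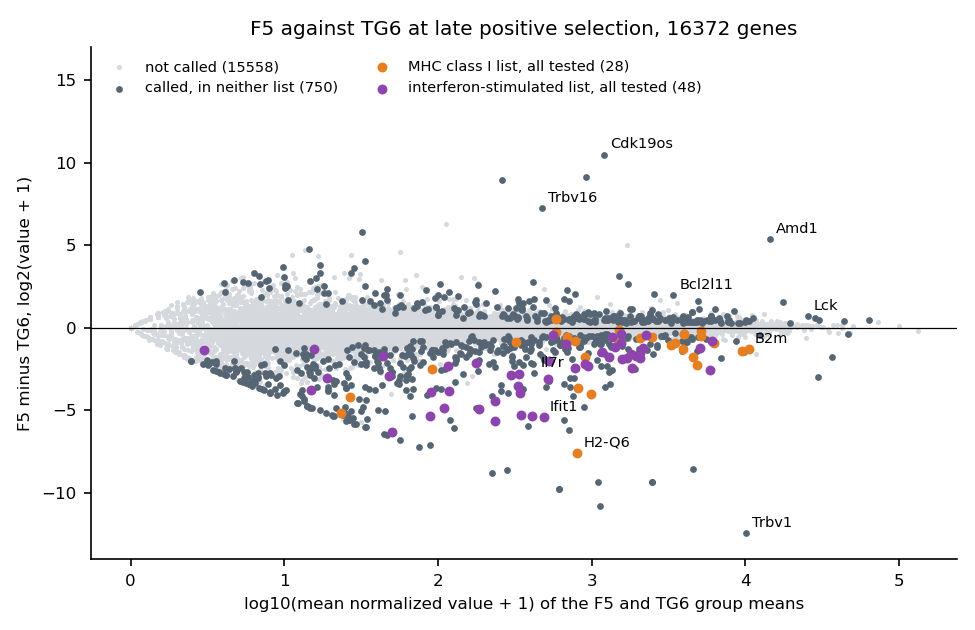
Difference between F5 and TG6 (y axis, log2(value + 1)) against mean level (x axis, log10) for the 16372 genes, with called genes in dark grey and all tested members of the interferon-stimulated list (purple, 48) and the MHC class I list (orange, 28) marked whether called or not. Nearly all marked members lie below 0, and Amd1 and Cdk19os stand far above it.

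Interferon-stimulated genes made up the group with the most calls relative to its size. Of 48 tested, 42 were lower in F5 and 0 higher, and all 3 F5 libraries lay below both TG6 libraries for 47. The median difference was -2.25. Taken per library, the list's median level on the log2 scale was 7.15, 7.14 and 7.36 in F5 against 9.60 and 9.90 in TG6, so the groups were well apart. The 3 OT-1 libraries stood near TG6, at 9.41, 9.24 and 9.30. The members not called were Ifit2, Stat2, Ifi44, Gbp6, Gbp8 and Slfn5. Of the 42 genes, 37 were also called lower without TG6 replicate 2, and 33 without F5 replicates 1 and 2. In bulk samples, fewer cells with an interferon response and less of these RNAs per cell cannot be told apart.

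The promoters of some members hold the letters of the element through which these genes are known to be switched on. A transcription factor complex that contains Stat2 and Irf9 binds the interferon-stimulated response element, whose core is GAAANNGAAA or, on the other strand, TTTCNNTTTC. RefSeq promoter windows (GRCm38.p6, from 250 bases before to 50 after a start) were searched on both strands with overlapping matches allowed, and 3.44% of all 32851 windows held the letters. Only 32 of the 48 interferon-stimulated genes had a window, too few for a share over the list, and 21 of those 32 held a match. Of all genes tested, 10390 had a window, and 388 of these held a match (3.73%). A match is a description of the letters only. The 3 windows printed here are Ifit1 and Isg15, which were far lower in F5, and B2m, of the MHC class I list, in which 4 of the 22 genes with a window held a match. Matches are in capitals and the strand is that of the gene.
Ifit1, chr19:34640639-34640938, plus strand: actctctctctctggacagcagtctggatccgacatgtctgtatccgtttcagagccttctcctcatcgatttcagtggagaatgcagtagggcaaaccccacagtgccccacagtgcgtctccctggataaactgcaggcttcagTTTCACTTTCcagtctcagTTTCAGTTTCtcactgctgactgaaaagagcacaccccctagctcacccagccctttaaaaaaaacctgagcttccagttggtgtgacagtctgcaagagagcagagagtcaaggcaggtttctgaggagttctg
Isg15, chr4:156200769-156201068, minus strand: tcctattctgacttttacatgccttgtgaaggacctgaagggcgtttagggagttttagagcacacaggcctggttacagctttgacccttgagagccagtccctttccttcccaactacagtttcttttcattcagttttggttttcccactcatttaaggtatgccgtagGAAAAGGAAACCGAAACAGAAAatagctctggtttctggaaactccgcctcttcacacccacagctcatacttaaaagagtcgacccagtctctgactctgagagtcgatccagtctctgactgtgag
B2m, chr2:122147437-122147736, plus strand: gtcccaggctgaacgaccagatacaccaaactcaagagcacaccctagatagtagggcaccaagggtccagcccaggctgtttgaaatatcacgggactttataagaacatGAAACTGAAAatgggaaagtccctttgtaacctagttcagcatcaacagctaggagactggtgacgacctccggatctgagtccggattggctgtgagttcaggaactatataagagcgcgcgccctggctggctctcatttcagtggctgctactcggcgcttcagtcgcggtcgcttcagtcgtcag
Ifit1 had 2 matches, Isg15 3 and B2m 1, all upstream of the start.

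Among antiviral effectors, Ifit1, which binds viral RNA, was at 15.3, 23.1 and 28.5 in F5 and at 877 and 1024 in TG6. Every F5 library was far below both TG6 libraries, and the difference was -5.39 ± 0.38 (SE, adjusted p = 1.7e-09). OT-1 had 562 ± 59.0 (SD, n = 3). Isg15, a ubiquitin-like modifier, stood at 41.9, 34.1 and 45.9 in F5 and 562 and 730 in TG6 (-3.96 ± 0.33, adjusted p = 2.97e-08). The oligoadenylate synthetase gene Oas1a was at 0, 1.00 and 0 in F5, under the floor of 3 used for fold changes, and at 85.2 and 110 in TG6, which is at least 32.5-fold higher in TG6. Rtp4 was at 28.6, 10.04 and 21.4 against 738 and 864 (-5.36 ± 0.35, adjusted p = 3.88e-10). Bst2, which tethers budding virus to the cell, was at 91.9, 85.3 and 77.4 in F5 and 533 and 634 in TG6 (-2.77 ± 0.19, adjusted p = 1.09e-09). The spread within each line was small beside that gap. Mx1 was at 5.57, 9.50 and 18.8 in F5 and at 90.7 and 74.4 in TG6 (-2.91 ± 0.65), but its adjusted p of 0.00815 became 0.104 without TG6 replicate 1 and 0.0684 without TG6 replicate 2.

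Several members are transcription factors of the pathway. Irf9 was at 491, 559 and 648 in F5 and at 2688 and 3475 in TG6 (-2.44 ± 0.22, adjusted p = 6.32e-08), lower in each F5 library than in either TG6 library. Its partner Stat2 was at 1119, 1511 and 1426 in F5 and 1639 and 1837 in TG6, and its difference of -0.37 ± 0.16 did not pass the test (adjusted p = 0.225). Irf7, which amplifies type I interferon responses, was at 356, 265 and 311 against 1405 and 1740 (-2.34 ± 0.22, adjusted p = 2.01e-07). Irf1, a target of interferon gamma that acts on class I genes, was at 923, 908 and 862 against 2715 and 3715 (-1.82 ± 0.22, adjusted p = 5.67e-06). The cytosolic RNA sensors Ifih1 and Ddx58 differed by -2.84 and -1.22 and both were called. Ddx58 was no longer called without F5 replicates 1 and 2 (adjusted p = 0.0593).

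Some of the GTPases that interferon gamma is known to induce were lower, while Gbp6 and Gbp8 were not called. Irgm1, which acts against intracellular microbes, was at 248, 214 and 264 in F5 and 1084 and 1552 in TG6 (-2.42 ± 0.22, adjusted p = 6.97e-08). Gbp3, a guanylate-binding protein, was at 29.2, 37.4 and 49.1 against 151 and 235 (-2.29 ± 0.25, adjusted p = 1.39e-06), and Tgtp1, which is not in the list, at 4.86, 28.2 and 6.95 against 420 and 1101 (-5.94 ± 0.92, adjusted p = 0.000157). In a fit on the late F5 and TG6 libraries only, the call of Gbp3 was lost (adjusted p = 0.0532). The TG6 libraries differed by more than 2-fold at Tgtp1, which its larger standard error reflects. Receptors and kinases upstream showed no call. Ifnar1 was at 3562, 3043 and 3301 in F5 and 3288 and 3246 in TG6, a difference of 0.01 ± 0.16 (adjusted p = 0.985), and Ifnar2 differed by -0.04, Ifngr1 by 0.61, Jak1 by 0.09 and Tyk2 by 0.16. Of 21 interferon genes in the table, 17 were listed at 0 in all 5 libraries, and Ifnz alone exceeded 3, at 14.7 in TG6 replicate 2.

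**Figure D2:**
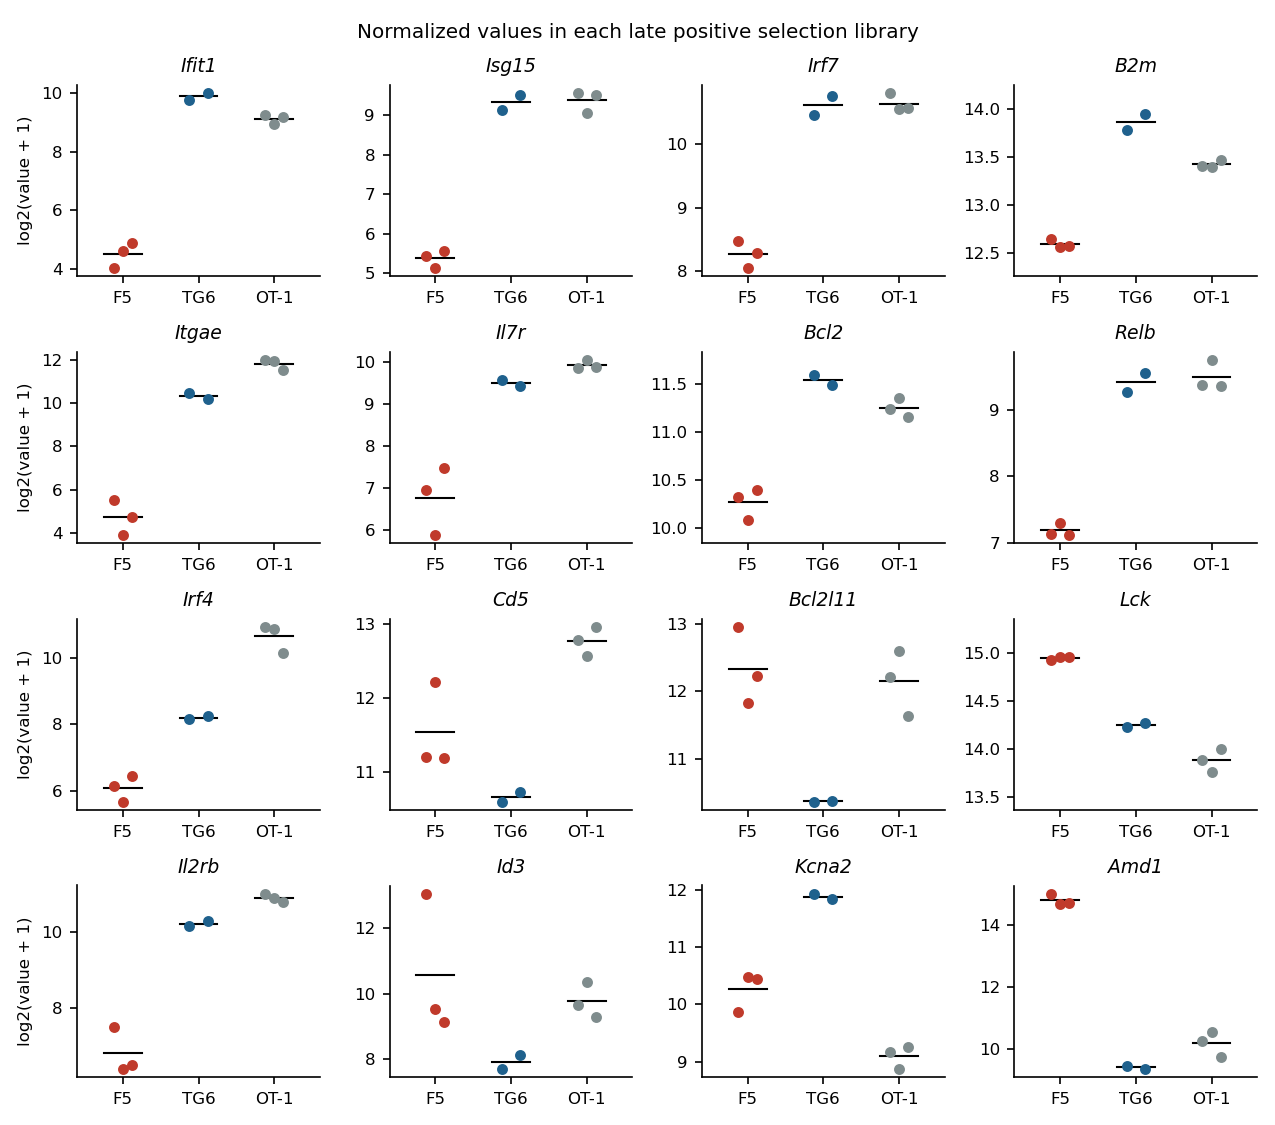
Values of named genes in each late library of F5, TG6 and OT-1 (y axis, log2(value + 1); points are libraries and the short lines are group means, and each panel has its own scale). All F5 points lie above the TG6 points for Cd5, Bcl2l11, Lck, Id3 and Amd1 and below them for the other genes.

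The MHC class I pathway, which loads cytosolic peptides for display to CD8 cells, had most of its genes lower in F5. Of 28 genes tested, 22 were lower and 0 higher, with a median of -0.93. The 19 members within the H2 complex had 15 calls and a median of -1.31, and the 9 members encoded elsewhere had 7 calls and a median of -0.61. The members not called were H2-Q2, H2-T10, H2-T23, Tap2, Tapbpl and Canx. Leaving out TG6 replicate 2 left 15 calls.

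B2m, the invariant light chain of class I molecules, is on chromosome 2 and was at 6406, 6018 and 6063 in F5 and 14058 and 15809 in TG6 (-1.27 ± 0.27, adjusted p = 0.00486). OT-1 had 10963 ± 275, between the other lines. Without TG6 replicate 2 the adjusted p of B2m was 0.0905. The classical heavy chain H2-K1 was at 1888, 1631 and 1553 against 6826 and 9176 (-2.23 ± 0.18, adjusted p = 1.14e-08), and H2-D1 at 5750, 4542 and 5245 against 12913 and 14973 (-1.43 ± 0.17, adjusted p = 7.03e-06). Nonclassical genes spread widely. H2-Q6 was at 3.44, 11.9 and 9.45 in F5 and 1304 and 1907 in TG6 (-7.55 ± 0.46, adjusted p = 1.62e-10), and in OT-1, which like F5 is H2b, it was at 13.0 ± 5.51. H2-T22 differed by only -0.87 ± 0.14 (adjusted p = 0.000198). Class I genes are close copies of each other and vary between haplotypes, so how reads were shared among them is uncertain and their single values are less secure than those of genes elsewhere.

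Nlrc5, the transactivator of class I genes, on chromosome 8, was at 2061, 1900 and 2229 in F5 and 6211 and 7956 in TG6 (-1.77 ± 0.23, adjusted p = 1.77e-05). The peptide transporter Tap1 was at 1726, 2426 and 2239 against 4176 and 4649 (-1.06 ± 0.17, adjusted p = 0.000261), and the trimming peptidase Erap1 at 1793, 1532 and 1553 against 2404 and 2549 (-0.61 ± 0.09, adjusted p = 6.65e-05). The groups did not overlap for any of them, and the calls of Tap1 and Erap1 were lost in a fit on the late F5 and TG6 libraries only (adjusted p of 0.0607 and 0.0744). The inducible proteasome subunits Psmb8, Psmb9 and Psmb10 differed by -0.53, -0.81 and -0.56, and these were the only members called among 38 proteasome subunits. Each of these calls was lost without TG6 replicate 2, at adjusted p of 0.156, 0.169 and 0.0872, and that of Psmb8 also without any other 1 library of the 5 except F5 replicate 2.

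Within 1 Mb of the H2 complex, 38 of 178 genes tested were called (21.3%), 32 of them lower in F5, and within 10 Mb 49 of 409. Around Rag1, labelled as knocked out in F5, 0 of 11 were called within 1 Mb and 4 of 85 within 10 Mb (4.71%), close to the share over all genes.

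The interferon and class I differences were not of the same size at all stages. At early positive selection (CD4+CD8+CXCR4+CCR7- cells) 6.46% of all genes were called between the lines, 3.12% higher and 3.35% lower in F5, and in mature CD8SP cells (CD4-CD8+CXCR4-CCR7+) 6.64%, with 2.14% higher and 4.50% lower. Early, the interferon-stimulated list had a median of -0.67 with 17 lower in F5, and in mature cells a median of -2.67 with 46 lower. The median level per library stayed within 6.84 and 7.53 over the 9 F5 libraries, whereas in TG6 it was 7.31, 7.56 and 7.76 early, 9.60 and 9.90 late and 10.14, 10.39 and 9.44 in mature cells. The class I list had medians of -0.20, -0.93 and -1.22 over the 3 stages. An interaction term tested whether the late difference departed from the early one, and 340 of all genes passed (2.08%), 230 more negative late (1.40%) and 110 more positive (0.672%). Of the interferon-stimulated list, 27 were more negative late and 1 more positive, and of the class I list 12 and 2.

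Bst2 is an example: its means were 205 in F5 and 201 in TG6 at the early stage, and the difference changed by -2.80 from early to late (adjusted p = 5.11e-06). H2-T22 moved the other way, from -1.93 early to -0.87 late and back to -2.25 in mature cells. Deviations of same-numbered F5 libraries correlated between stages, and with the replicate number within each line as a block 744 genes passed the late against early test. Against the mature stage, 19 genes departed (0.116%), 4 more negative late (0.0244%) and 15 more positive (0.0916%), or 58 with that block. Of the 814 late calls, 278 were called in the same direction early, 512 in mature cells and 207 at all 3 stages, while 231 were called at neither of the other stages.

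**Figure D3:**
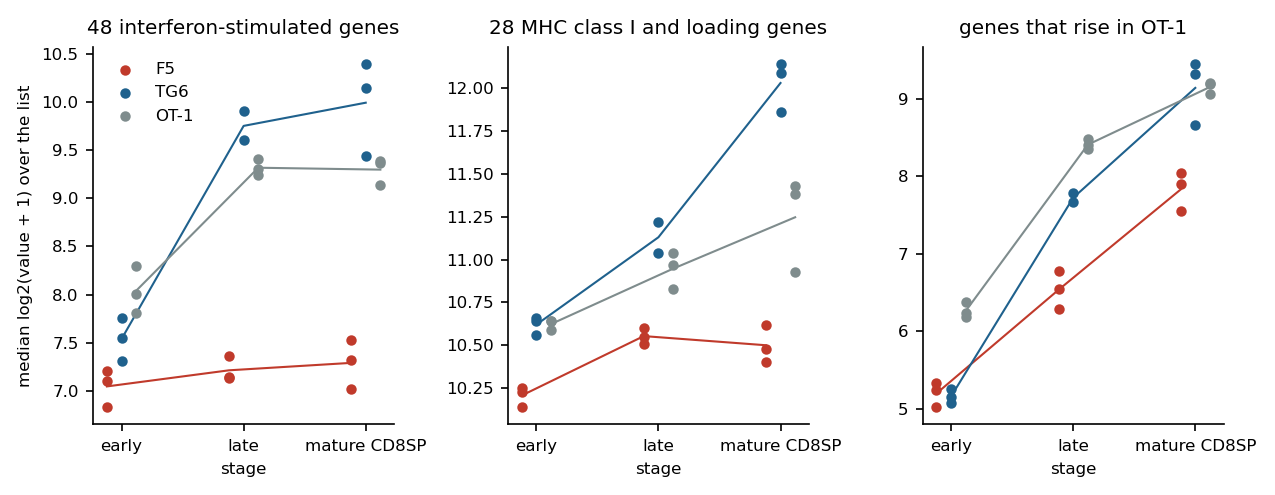
Median level over a list (y axis, log2(value + 1)) at early and late positive selection and in mature CD8SP cells, with 1 point per library and lines through the group means of F5, TG6 and OT-1, for the interferon-stimulated list, the MHC class I list and the genes that rise in OT-1 without both. In the left panel all F5 points lie between 6.84 and 7.53, and the late TG6 points at 9.60 and 9.90; in the right panel OT-1 rises by the choice of the list.

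**Figure D4:**
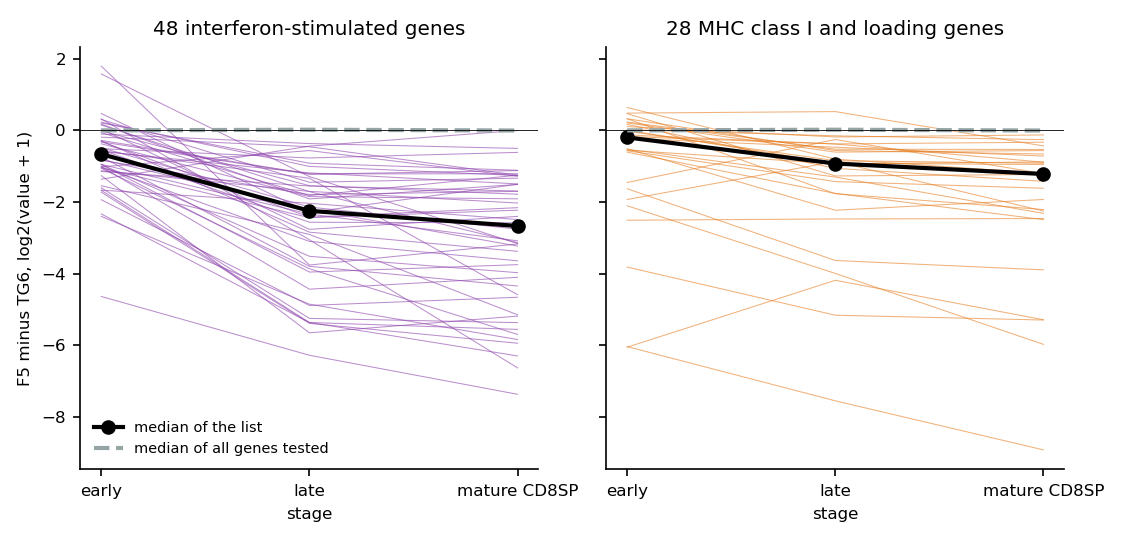
F5 minus TG6 difference (y axis, log2(value + 1)) at the early, late and mature stages (x axis), with 1 thin line per gene of the interferon-stimulated list (left) and the MHC class I list (right), the list's median in black and the median of all genes tested dashed. The list medians run from -0.67 through -2.25 to -2.67 and from -0.20 through -0.93 to -1.22.

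Genes of maturation were described with a list ranked in OT-1, the 200 genes that rose most there between the early and the mature stage. For this list and the falling list below, F5 and TG6 libraries entered the filter, a mean of at least 50 over all 26 libraries. Members could thus pass it through high values in F5 or TG6. Those libraries also entered the spread behind the OT-1 calls. Without the 14 of the 200 that stand in the interferon or class I lists, 186 remained, of which 70 were lower and 4 higher in F5, with a median of -0.87. At the early stage their median difference was 0.04 and in mature cells -0.82. The 186 still hold interferon-linked genes outside the fixed list, such as Ifi27l2a, Tgtp1, Tgtp2 and Ddx60. The 4 that were higher in F5 were Il18r1, Cers4, Qpct and Filip1l. The opposite list, the 200 genes that fall most in OT-1, had 16 higher and 6 lower and a median of 0.32, and the 6 lower were Gm8909, Gm10499, H2-Bl, Notch3, Abat and Hivep3. At the early stage that list had a median of -0.52, with 47 lower and 3 higher in F5. Without TG6 replicate 1 or 2, 44 or 43 of the 186 rising genes were lower, and 7 or 8 of the falling genes were higher; without F5 replicate 2, 9 of the falling genes were higher.

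Itgae, the integrin chain CD103 of CD8 cells, was at 44.9, 14.1 and 25.5 in F5, at 1410 and 1174 in TG6 and at 3643 ± 615 in OT-1. The F5 to TG6 difference was -5.61 ± 0.49 (adjusted p = 5.31e-08). Il7r, the survival cytokine receptor chain that returns after selection, was at 123, 58.2 and 177 in F5 and 757 and 690 in TG6 (-2.73 ± 0.49, adjusted p = 0.000969), and Bcl2, the survival factor downstream of it, at 1275, 1081 and 1348 against 3090 and 2872 (-1.28 ± 0.20, adjusted p = 0.000159). F5 was thus low for both. Its counterpart Bcl2l11, which encodes the death factor Bim, was at 7916, 3646 and 4773 in F5 against 1316 and 1327 (1.97 ± 0.39, adjusted p = 0.00276), and these were the only members called among 15 Bcl-2 family genes. Il7r and Bcl2l11 lost their calls in the fit on the late F5 and TG6 libraries only, at adjusted p of 0.0795 and 0.0707. Without F5 replicates 1 and 2 their differences were -2.02 and 1.85. Slfn1, tied to quiescence of T cells, was at 279, 148 and 158 against 1902 and 2576 (-3.56 ± 0.35, adjusted p = 2.9e-07), and Ms4a6b at 1862, 2213 and 2304 against 5890 and 5411 (-1.41 ± 0.16, adjusted p = 2.63e-06).

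Of 24 genes of egress and terminal maturation, 7 were lower and 1, Cd44, was higher in F5, with a median of -0.30. The central egress genes gave no call. Klf2, which switches on S1pr1, was at 3936, 731 and 640 in F5 and 745 and 743 in TG6, so that F5 replicate 1 alone was high (0.72 ± 0.56, adjusted p = 0.613). S1pr1, the exit receptor, was at 1893, 657 and 612 against 1431 and 870 (-0.29 ± 0.48, adjusted p = 0.86). Ccr7, used to sort these cells, was at 7609, 2698 and 3615 in F5 against 7585 and 8519 in TG6 (-0.94 ± 0.39, adjusted p = 0.216), and without F5 replicate 1 its difference was -1.36 (adjusted p = 0.0331). Cd44 was at 350, 320 and 343 against 162 and 122 (1.25 ± 0.23, adjusted p = 0.00113), with an adjusted p of 0.0633 without TG6 replicate 2.

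NF-kB and NFAT factors had 5 of 23 lower in F5 and 0 higher, with a median near that of all genes, -0.06. The 5 are subunits and regulators of NF-kB. Relb, the partner of the noncanonical pathway, was at 140, 158 and 139 in F5 and 614 and 750 in TG6 (-2.22 ± 0.21, adjusted p = 1.86e-07). Bcl3, a nuclear regulator of the p50 and p52 subunits, was at 0 in all 3 F5 libraries and at 49.98 and 60.5 in TG6, at least 18.4-fold higher there. Nfkb2, Nfkbie and Nfkb1 differed by -1.17, -0.53 and -0.41, and all 3 lost their calls without TG6 replicate 2 (adjusted p of 0.105, 0.383 and 0.293), Nfkbie also without any other 1 library of the 5 except F5 replicate 2. A pair of TNF superfamily members were low as well. Tnfrsf9, the costimulatory receptor 4-1BB, was at 7.09, 2.59 and 0 against 94.3 and 165 (-5.35 ± 0.64, adjusted p = 5.55e-06), and Tnfsf8, the CD30 ligand, at 8.17, 7.03 and 11.2 against 120 and 134 (-3.73 ± 0.39, adjusted p = 8.03e-07). The call of Tnfrsf9 was lost in the fit on the late F5 and TG6 libraries only (adjusted p = 0.0799). With Cd86, Tnfrsf9 and Tnfsf8 were the only members called of 27 costimulatory and inhibitory receptors, a list that also holds ligands such as Tnfsf8 and Cd86. The call of Cd86 was lost without TG6 replicate 1 or 2 (adjusted p of 0.179 for each) and without F5 replicate 2 or 3 (0.0741 and 0.0756).

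Cytokine receptors and Socs genes had 6 of 39 lower and 2 higher in F5, 3 lower and 1 higher without TG6 replicate 1, and 2 lower and 0 higher without TG6 replicate 2. Il2rb, the shared chain of the interleukin 2 and 15 receptors, was at 182, 83.6 and 90.0 in F5, 1150 and 1248 in TG6 and 1919 ± 138 in OT-1. The difference of -3.42 ± 0.34 (adjusted p = 2.88e-07) was found at this stage: it was -0.66 early and -0.29 in mature cells, and the late difference departed from the early one by -2.76 and from the mature one by -3.12 (adjusted p of 0.00106 and 0.004). F5 cells reached a mean of 2370 in the mature stage. Socs3, which limits cytokine signalling through Jak kinases, was at 306, 323 and 301 in F5 and 803 and 877 in TG6 (-1.43 ± 0.30, adjusted p = 0.00403, and 0.0728 without TG6 replicate 2). The interleukin 18 receptor genes Il18r1 and Il18rap were the 2 higher ones, by 1.72 and 1.63, and neither call held without either TG6 library, nor that of Il18rap without F5 replicate 2 or 3 (adjusted p of 0.0822 and 0.0699).

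Genes that read the strength of TCR signalling showed few calls. Of 26 immediate response genes, Fos was higher and Irf4 lower in F5. Nr4a1, the reporter of TCR signals, was at 10450, 2902 and 3247 in F5 and 1428 and 1864 in TG6, a difference of 1.50 ± 0.77 that did not pass (adjusted p = 0.36) although the groups did not overlap. Egr1 differed by 0.32 ± 0.38 (adjusted p = 0.78). Irf4, which grades the strength of signals, was at 69.5, 50.2 and 86.6 against 286 and 302 (-2.11 ± 0.31, adjusted p = 9.16e-05). Fos was at 2133, 414 and 978 against 183 and 214 (2.26 ± 0.65, adjusted p = 0.0442) and lost its call without F5 replicate 1 or 3 or TG6 replicate 1 or 2 (adjusted p of 0.184, 0.0964, 0.274 and 0.198). Id3, the inhibitor of E proteins, was at 8291, 735 and 567 against 210 and 280, a difference of 2.64 (adjusted p = 0.0353) that was 1.41 without F5 replicate 1 (adjusted p = 0.0968). Its call was also lost without TG6 replicate 1 or 2 (0.266 and 0.152).

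Attenuators of TCR signals had 3 of 33 higher and 2 lower, with 1 in each direction without TG6 replicate 1 and 0 calls without TG6 replicate 2. Cd5, which dampens TCR signals and is set by self-reactivity, was at 2362, 4754 and 2336 in F5, 1550 and 1702 in TG6 and 7002 ± 926 in OT-1. F5 exceeded TG6 in every pair of libraries (0.87 ± 0.21, adjusted p = 0.0124), but the call was lost without TG6 replicate 1 (0.155) or replicate 2 (0.0758). Cd6, its paralog, was at 4625, 5987 and 3850 against 3128 and 3331 (0.55 ± 0.13, adjusted p = 0.00921, and 0.132 and 0.0617 without either TG6 library). Among proximal signalling genes, Lck, the kinase bound to CD4 and CD8, was at 31053, 31824 and 31826 in F5 and 19167 and 19726 in TG6 (0.70 ± 0.08, adjusted p = 5.01e-06). Sos1 differed by -0.60 ± 0.12 (adjusted p = 0.00368, and 0.0752 without TG6 replicate 2), and these were the only calls of 27.

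Lineage and stage genes gave few calls at this stage. Of 20 coreceptor and lineage genes, Tox and Tcf7 were higher in F5, by 0.46 and 0.48, and neither call held without either TG6 library or under quantile normalisation. That of Tox was also lost without F5 replicate 2 or 3 (adjusted p of 0.127 and 0.0651), and that of Tcf7 without F5 replicate 1 (0.0624). Cd4 was at 5160, 10664 and 7981 in F5 against 4084 and 4089 (0.90 ± 0.55, adjusted p = 0.484), and Cd8a differed by -0.15. The 11 preselection genes, a list the study took from microarray data of other thymocytes, had a median of 0.21. Early their median was -0.76, and 7 were lower in F5 and 0 higher, where 3.35% of all genes were lower. In the interaction test 5 were more positive late than early and 0 more negative, against 0.672% and 1.40% of all genes. At the late stage only Ets2 was called, at 7767, 5212 and 4961 against 3090 and 2990 (0.95 ± 0.22, adjusted p = 0.00988). Its call was lost without F5 replicate 1, TG6 replicate 1 or TG6 replicate 2, with adjusted p of 0.0554, 0.0804 and 0.112. Notch genes had 3 of 22 lower and 1 higher. The higher call, Jag2, was lost without F5 replicate 1 or 2 or TG6 replicate 1 or 2 (adjusted p of 0.0798, 0.104, 0.12 and 0.235), and the lower call of Lfng without F5 replicate 2 or 3 or TG6 replicate 1 or 2 (0.194, 0.109, 0.299 and 0.183). Dtx1, a Notch target, was at 865, 408 and 503 in F5 and 3334 and 3105 in TG6 (-2.51 ± 0.23, adjusted p = 8.18e-08), and Notch3 at 320, 299 and 339 against 1199 and 1161 (-1.88 ± 0.26, adjusted p = 3.41e-05).

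The study named 12 ion channel genes as examples from its gene set result, apart from a longer curated list. Of these 12, only Kcna2, a voltage-gated potassium channel, was called. It was at 931, 1426 and 1396 in F5, 3873 and 3654 in TG6 and 553 ± 74.1 in OT-1 (-1.61 ± 0.30, adjusted p = 0.00151, and 0.0681 without F5 replicates 1 and 2), so the lines stood in the order TG6, F5, OT-1. That list was chosen on these samples and is no independent evidence. Lists published by the study for CD5 low peripheral CD8 cells had 2 of 36 and 3 of 38 lower in F5 and 0 higher. Without TG6 replicate 2 the first had 1 lower, and without TG6 replicate 1 the second had 1 lower. Kcna2 was in both. Kcnd2, another potassium channel, was at 0, 0 and 1.02 in F5 against 143 and 208 in TG6, at least 58.6-fold higher there.

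Machinery genes mostly lay near the background. No gene was called of 40 for DNA replication, 40 for mitosis, 13 for recombination, 23 for calcium entry, 74 mitochondrial ribosomal proteins and 18 aminoacyl-tRNA synthetases. The summed level of the mitosis list was 7626, 22478 and 7637 in F5 and 7141 to 7423 in TG6, so F5 replicate 2 alone was high. Of 83 cytosolic ribosomal proteins 10 were higher in F5 and 0 lower, with a median of 0.17, and the count was 6 under total scaling, 18 without F5 replicate 2, 3 without F5 replicate 1, 4 without TG6 replicate 1 and 1 without TG6 replicate 2. Of 78 oxidative phosphorylation subunits 2 were higher, and of 19 glycolysis genes Slc2a3 was lower by 0.63, a call lost without F5 replicate 3 or TG6 replicate 1 or 2. Without TG6 replicate 2, 1 oxidative phosphorylation subunit was higher.

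**Figure D5:**
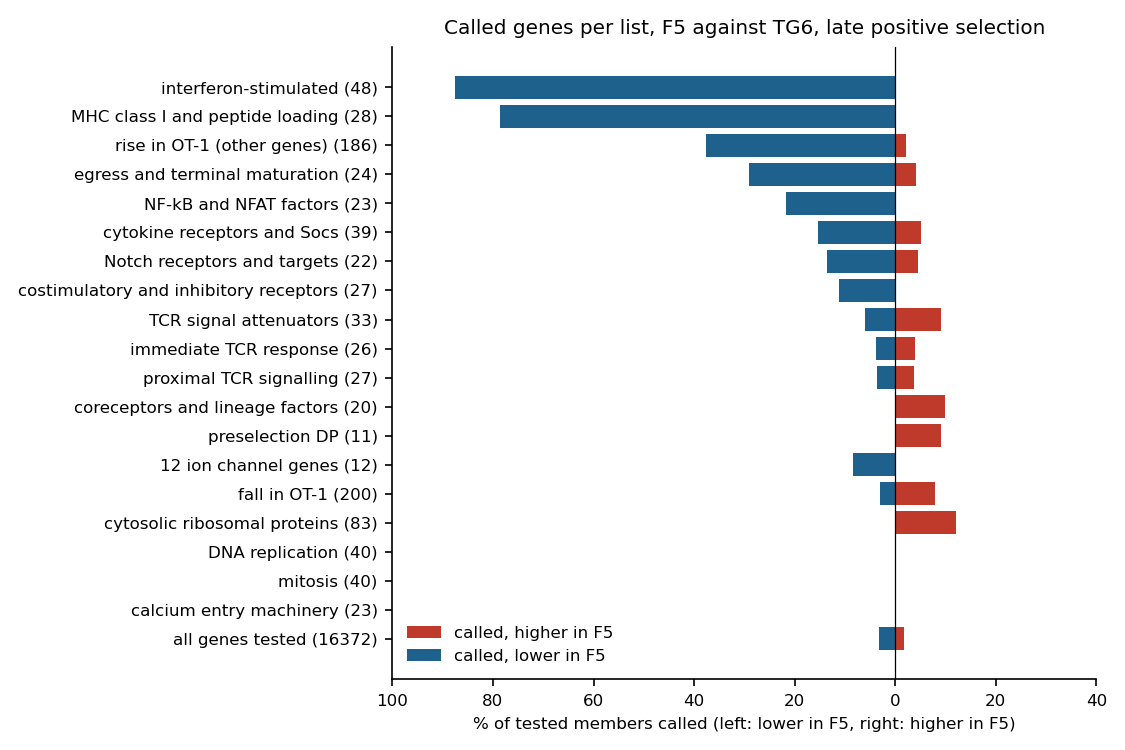
Share of each gene list called higher (right) or lower (left) in F5 than in TG6 at late positive selection, in percent of its tested genes, beside the share over all genes tested. The interferon-stimulated list (42 of 48) and the MHC class I list (22 of 28) have the longest bars, both to the left.

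The genes with the largest differences included a cluster on chromosome 10. Amd1, the decarboxylase that feeds polyamine synthesis, was at 32345, 25956 and 26679 in F5 and at 704 and 665 in TG6 (5.36 ± 0.20, adjusted p = 5.68e-14), and OT-1 had 1206 ± 325. The difference was also 4.98 early and 3.95 in mature cells, so F5 carried it at every stage. Its gene lies at chr10:40287458-40302186 (GRCm38, minus strand). Nearby, the antisense RNA Cdk19os (chr10:40348508-40350103, minus strand) was at 1970, 2732 and 2542 against 0 and 1.77, at least 805-fold higher in F5, and Cdk19, in which it lies, differed by 0.60 ± 0.10 (adjusted p = 0.000325). The sources used here do not say that reads were counted by strand, so reads of Cdk19os and Cdk19 cannot be told apart where they overlap. Those were the 3 genes called of 15 tested within 1 Mb. Amd2, on the same chromosome at chr10:35708675-35711892, was at 720, 495 and 352 against 0 and 0, but it is a close copy of Amd1 and its reads may come from that gene.

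Cpt1a, which carries fatty acids into mitochondria, was at 1561, 3992 and 2583 in F5 and 182 and 467 in TG6 (3.11 ± 0.52, adjusted p = 0.000401). Its call was lost in the fit on the late F5 and TG6 libraries only (adjusted p = 0.0797). In the other direction stood Adam19, a metalloprotease gene, at 30.8, 8.63 and 22.3 against 1596 and 1226 (-6.18 ± 0.60, adjusted p = 2.75e-07), with 2819 ± 774 in OT-1. Hoxc9, a homeobox gene, was at 1.93, 5.68 and 4.80 against 236 and 230 (-5.60 ± 0.69, adjusted p = 9.19e-06). The predicted genes Gm10260 and Gm11361 were at or near 0 in F5 and at 2360 and 2173, and at 469 and 426, in TG6, at least 756-fold and 149-fold higher there. Predicted genes of this kind are often copies of other genes, and where their reads came from is uncertain.

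TCR segments, which join into the receptor chains, gave many of the largest differences. Of 91 alpha variable segments, 63 were lower in F5 and 1, Trav6-1, higher, and Trav6-1 was at 1162, 2066 and 2305 in F5 against 0.979 and 3.93. Of 9 beta variable segments, Trbv16 was higher, at 541, 1204 and 1081 against 3.92 and 5.90, and 5 were lower. Trbv1 was at 0, 0 and 47.9 in F5 and 20107 and 20302 in TG6, and Trbv13-1 at 0.990, 1.95 and 5.93 against 2199 and 2218. The alpha constant gene Trac was at 5186, 7314 and 7687 in F5 and 47837 and 58214 in TG6 (-2.99 ± 0.16, adjusted p = 1.48e-11).

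Markers of other cells were checked as lists. Of 11 macrophage and dendritic cell markers 3 were lower in F5, the class II genes H2-Aa, H2-Ab1 and Cd74, and the summed level was 51.0 to 108 in F5 and 611 to 1078 in TG6, most of it from those genes. Over the list 7 of the 11 had every F5 library below both TG6 libraries, and the median difference was -1.80. C1qa was at 0 in every library, Csf1r and Clec9a were at 0 in every F5 library and at 1.29 to 11.2 in TG6, and Lyz2, Adgre1 and Fcgr1 overlapped between the lines at 8.17 or less. B cell markers summed to 3396 to 4871 in F5 and 2887 to 2936 in TG6, with Cd79b and Ighm higher and Blk lower in F5, and Cd22 was at 16.6 or less. Markers of gamma delta cells summed to 6541 to 8303 against 2088 to 3474, almost all of it Trdc, which was higher in F5 by 1.63, while Tcrg-C2, Tcrg-C4 and Blk were lower. Of the 6 tested, 5 had every F5 library below both TG6 libraries and 1, Trdc, above, and the median difference was -2.35. Natural killer markers summed to 241 to 258 against 592 to 705, most of it Nkg7, which was lower and the only call among the 4 tested. The median of those 4 was 0.08, and Ncr1 was at 0 in every library. Double-negative markers summed to 1438 to 1861 against 5294 to 5722, with Dtx1, Notch3 and Il7r lower and Cd44 higher. Foxp3 was the 1 gene called among CD4 lineage and regulatory T cell markers, at 12.5, 4.89 and 14.9 in F5 against 41.8 and 46.9. Without TG6 replicate 2, H2-Aa, Cd74, Foxp3, Tcrg-C2 and Nkg7 were no longer called (adjusted p of 0.188, 0.115, 0.129, 0.199 and 0.0670). Without TG6 replicate 1, H2-Aa, Foxp3, Tcrg-C4, Blk and Nkg7 were no longer called (0.0648, 0.0803, 0.0596, 0.0624 and 0.139). Without F5 replicate 2 the calls of Nkg7 and Foxp3 were lost (0.0517 and 0.0645), and without F5 replicate 3 that of H2-Aa (0.0768). The calls of Cd79b and Ighm were both lost without F5 replicate 2 or 3 or TG6 replicate 1 or 2, and 1 of them was left without F5 replicate 1. No erythroid or thymic epithelial marker was called. The part of such cells in the differences above was not tested.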

How the data were processed

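Thymocytes of 3 TCR transgenic lines were sorted at 3 stages, and RNA-seq gave 26 libraries in 9 groups. Per the labels and the methods, the authors used Trimmomatic 0.32 for trimming, Bowtie2 2.3.2 for alignment to mm10, RSEM 1.2.31 for estimated counts and the median of ratios of DESeq2 for scaling, whose version is not given in the sources used here. The deposited signal values are these normalized counts and not whole reads, and no count model was run. The precision rests on the number of libraries, 3 in F5 and 2 in TG6.

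Values were analysed as log2(value + 1) with limma 3.58.1 (R 4.3.3), with 1 mean for each group, 17 residual degrees of freedom, a variance trend, no covariate and Benjamini-Hochberg adjustment over 16372 genes. Stages were compared by interaction contrasts. A fold against a group at or under 3 in every library is a lower bound against 3. Fold changes of low genes are understated by the pseudocount of 1. On simulated data with 200 of 16372 genes changed between these 5 libraries, the fit recovered 62 of 100 changed 2-fold and 94 of 100 changed 4-fold, and 11 of 167 calls were unchanged genes. The changed genes were drawn only from genes above a set mean level, so recovery of low genes was not tested. Simulated libraries were drawn independently, without pairing between stages.

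Lists are described by counts and medians. The members and lists were chosen with earlier results of these data known. Named genes are called members of the lists, the leading members of each list, the 12 genes per direction with the largest called difference, no overlap and a mean of at least 100 in the higher group (TCR segments apart), Rag1, Rag2 and the sorting markers, and the 5 with the smallest adjusted p in each interaction among late calls; a few others named in counts, in the chromosome windows, in the falling and rising lists and among the interferon receptors were chosen after their values were seen. Positions are from GENCODE vM21 (GRCm38), which held 92.6% of the genes tested. Sequences are from RefSeq.

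Replicate numbers were examined through deviations from group means. Within F5, same-numbered late and early libraries correlated at 0.135 to 0.259 and late and mature ones at 0.227 to 0.340, which was taken as pairing the stages of F5, though no label ties them to mice. In TG6 they lay at 0.023 to 0.051, and the lines are different mice. The alternatives were other pseudocounts, filters and scalings, a fit on the contrast's groups only, no variance trend, replicate blocks, and leaving out each library. Python 3.11.15 (pandas 2.3.3, numpy 2.4.6, matplotlib 3.10.9) was used for tables and plots. Single-gene results for some genes are not reported here.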

Additional observations from a re-analysis of the deposited data

Results flagged for a closer look

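The difference between F5 and TG6 was not the same at all stages, by the interaction test in limma (Benjamini-Hochberg adjusted p under 0.05), for 340 genes between late and early positive selection and for 19 between late positive selection and mature CD8SP cells. Values here are the late F5 minus TG6 difference less that of the other stage, on the log2 scale. Groups of 2 or 3 libraries were not tested for outlying samples.

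Against the early stage, interferon-stimulated genes were more negative late: Ifit1 by -3.66, Ifit3 -2.80, Isg15 -3.00, Irf7 -1.39, Irf9 -1.39, Irf1 -1.76, Usp18 -3.42, Bst2 -2.80, Rtp4 -3.03, Irgm1 -2.11, Ly6a -5.55, Gbp3 -2.76 and Ifih1 -2.55. Outside that list, Tgtp1 was at -4.73, Lgals3bp -2.01 and Eif2ak2 -0.99. Genes of MHC class I and peptide loading were B2m at -1.74, H2-K1 -1.71, H2-Q7 -1.89, Tap1 -1.23, Tapbp -0.92, Psmb8 -0.76, Psmb9 -1.44, Psmb10 -0.89, Nlrc5 -2.09 and Erap1 -0.81, with H2-T22 in the other direction at 1.06. The class I related Gm8909 was at -3.85 and the class II gene H2-Ab1 at -3.22.

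Genes of maturation and survival were Itgae at -4.63, Il7r -3.62, Slfn1 -2.23, Bcl2 -1.74, Ms4a4b -1.71, Ms4a6b -2.13 and Plac8 -2.30. Genes of NF-kB were Relb at -1.98, Bcl3 -5.31 and Nfkb1 -0.75, and TNF superfamily members were Tnfrsf9 at -4.37 and Tnfsf8 at -2.92. Il2rb was at -2.76, Cd7 -2.59, Lfng -2.66, St8sia6 -4.48, Tcrg-C2 -4.32 and Cdh1 -6.09. More positive late were Ets2 at 1.48, Cacna2d4 1.26 and Nsg2 0.81.

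Against the mature stage, Il2rb was more negative late at -3.12 and Dtx1 at -1.62, and more positive were H2-T22 at 1.38, Amd1 1.42, Nsg2 0.97, Qpct 1.89 and Igfbp4 3.54.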

How the results depend on the processing

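The count of genes called late was 814. It was lowest in the fit on the 2 late groups only, at 259, and was 524 with the added demand of a log2 difference beyond 1. Leaving out 1 library gave 375 to 762, and leaving out F5 replicates 1 and 2 together, an alternative chosen after seeing the data, gave 418 (77 higher, 341 lower). Total scaling gave 205 higher and 600 lower, against 286 and 528. The late against early count of 340 ranged over 156 to 392 without 1 library and was 744 with the replicate number within each line as a block. The late against mature count of 19 was 43 with a pseudocount of 5, 38 without a filter, 3 in the fit on the groups of that contrast, 58 with that block, and 4 to 23 without 1 library. With the replicate number across lines as a block the counts were 856, 345 and 24. The median of all 200 rising genes was -1.01, with -1.31 for 100 genes in their place and -1.06 to -0.94 without 1 library, and that of the 186 was -0.94 to -0.79 without 1 library. That of the falling list was 0.16 to 0.38 without 1 library. The cause of these shifts was not tested, except that the fits on fewer libraries rest on fewer residual degrees of freedom. The interferon-stimulated list had a median of -2.55 to -1.97 and at least 32 lower over all alternatives. Over the genes named and the settings other than leaving out F5 replicates 1 and 2 together, 2087 values kept their side of the threshold, 211 lost the call and 1 gained it (Ccr7, without F5 replicate 1). Leaving out those F5 replicates together ended the calls of 47 of the genes named. No called value changed sign, while genes not called, such as Klf2, S1pr1, Rag1, Rag2, Ifngr2 and Mki67, did in some settings. A replicate block ended the calls of Socs2, Lax1 and Lfng and changed no other call among them. The fit on the 2 late groups only ended more, such as those of Gbp3, Tap1, Erap1, Il7r, Bcl2l11, Tnfrsf9, Cpt1a, Trbv1, H2-Ab1 and Trdc. With 2 TG6 libraries, differences of about 2-fold were often missed in the simulated data.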
